A study of Rattus norvegicus with 44 samples.

Results

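The genes described here belong to the TNF and NF-κB pathway, followed in RNA of the dentate gyrus (DG) of 44 male F344 rats. The 10 genes were taken by name: the NF-κB subunits Nfkb1, Nfkb2, Rela and Relb, the inhibitors Nfkbia and Tnfaip3, the TNF receptors Tnfrsf1a and Tnfrsf1b, and the endothelial adhesion molecules Icam1 and Vcam1. They are 10 of the 18347 genes in the deposited table, and all 10 were among the 15598 genes tested, whose normalized value averaged 5 or more. The rule that names them uses no measured value, and the values of all table entries of a gene were summed. Each rat gave 1 poly(A)-selected RNA-seq library from the DG of 1 hemisphere, with an estimated 10165890 to 24326679 reads per rat and medians of 16701484 for YNG, 15134573 for AV, 15727057 for AA and 17819873 for ADQ, the groups defined next. Young rats, 6 months old by their labels, received vehicle (YNG, n = 10). The older rats, labelled as 12 months old, received vehicle (AV, n = 12), the senolytic ABT-263 (AA, n = 11), or the senolytic combination of dasatinib and quercetin (ADQ, n = 11) by mouth in repeated cycles before the tissue was taken. Treatment began at the labelled age and the tissue was taken months later, so the older rats were older than their labels at collection. ABT-263, also called navitoclax, inhibits anti-apoptotic BCL-2 family proteins; dasatinib is a tyrosine kinase inhibitor and quercetin a plant flavonoid. The question of the study was how senolytic treatment of aging rats bears on the brain. Markers of dentate granule cells were present in every rat, with the summed level of Prox1, C1ql2, Dsp, Calb1 and Rfx3 at a median of 12486 normalized counts for YNG, 10229 for AV, 10809 for AA and 10013 for ADQ.

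NF-κB is a family of dimeric transcription factors that IκB proteins such as the product of Nfkbia hold in the cytoplasm until a kinase complex downstream of TNF, interleukin-1 or Toll-like receptors marks the inhibitor for destruction. Freed dimers of p50, the product of Nfkb1, with RelA drive the fast canonical response, while p52, the product of Nfkb2, with RelB serves the slower noncanonical branch. Several target genes, among them Nfkbia, Tnfaip3 (A20), Nfkb1 and Nfkb2, encode parts of the pathway itself, and in brain the endothelium, microglia and astrocytes are its best known sites of inflammatory activity.

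The κB consensus, the DNA motif that NF-κB dimers bind, was searched on both strands of the RefSeq promoters of build GRCr8. Each promoter covered 250 bases before to 50 bases after a gene's start. The consensus was written as GGG, A or G, any base, any base, C or T, C or T, and CC. An entry was found for 9 of the 10 genes, with none used for Relb. A match was present in 5 of these 9, against 7.51% of all 33469 promoters and 36.2% of the 58 promoters of other genes on the pathway lists used below. The matches in Nfkb1, Nfkb2, Nfkbia, Tnfaip3 and Vcam1 are printed because they show what these genes share in sequence, 5′ to 3′ on the gene's own strand, with the matched bases in capitals.
Nfkb1: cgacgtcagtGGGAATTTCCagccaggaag
Nfkb2: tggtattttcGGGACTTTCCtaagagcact
Nfkbia: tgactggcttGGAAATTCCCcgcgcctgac
Tnfaip3: gactGGAAAGTCCCtcGGAAATCCCCctgt
Vcam1: tccccttgaaGGGATTTCCCtccgcctctc
The stretches lie at chr2:226805440-226805469 (Nfkb1, minus strand), chr1:255108344-255108373 (Nfkb2, plus strand), chr6:78597084-78597113 (Nfkbia, minus strand), chr1:15544021-15544050 (Tnfaip3, minus strand) and chr2:206742857-206742886 (Vcam1, minus strand). The Nfkbia match begins 31 bases before the gene's start, that of Nfkb2 20 bases before it and that of Vcam1 93 bases before it, where the bases read as a match on both strands. Tnfaip3 holds 3 matches, 67 and 55 bases before the start as printed, and another 170 bases before it. Only the Nfkb1 match lies after the start. In Rela, Icam1, Tnfrsf1a and Tnfrsf1b these letters were not in the window, which says nothing about binding elsewhere. Genes with a match were found both among those that differed between groups below and among those that did not.

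Before the comparisons, 4 AV libraries have to be set apart. Rats 3989, 3999, 4009 and 4568 had 199 to 461 normalized counts of Prf1, the perforin of cytotoxic lymphocytes, while the other 40 rats had at most 13.9. Nkg7, Cd8a and Gzmb, further genes of cytotoxic T and NK cells, were also higher in each of these 4 rats, with 33.25 to 214, 6.52 to 117 and 15.1 to 51.2 normalized counts, against at most 3.13, 3.40 and 2.44 elsewhere. Cd3e, another gene on the T and NK cell list, did not follow them, with 1.07 to 159 in these 4 and up to 233 in the other rats. Rat 3989 also had the highest summed level of red blood cell genes of any rat (90354 normalized counts against an AV median of 10813), and likewise the highest endothelial (9059), pericyte (1871), microglial (12243), astrocyte (135420) and oligodendrocyte (174720) sums. In AA, rat 4107 had the lowest granule cell sum, 2842, and the highest CA1 pyramidal cell sum, 42737 against an AA median of 10648. The main comparisons are therefore given with all rats and, for most but not all values, also without the 4 rats high in Prf1, a choice made after the values were seen. In bulk tissue, fewer cells of a type and less RNA per cell cannot be told apart.

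**Figure D1:**
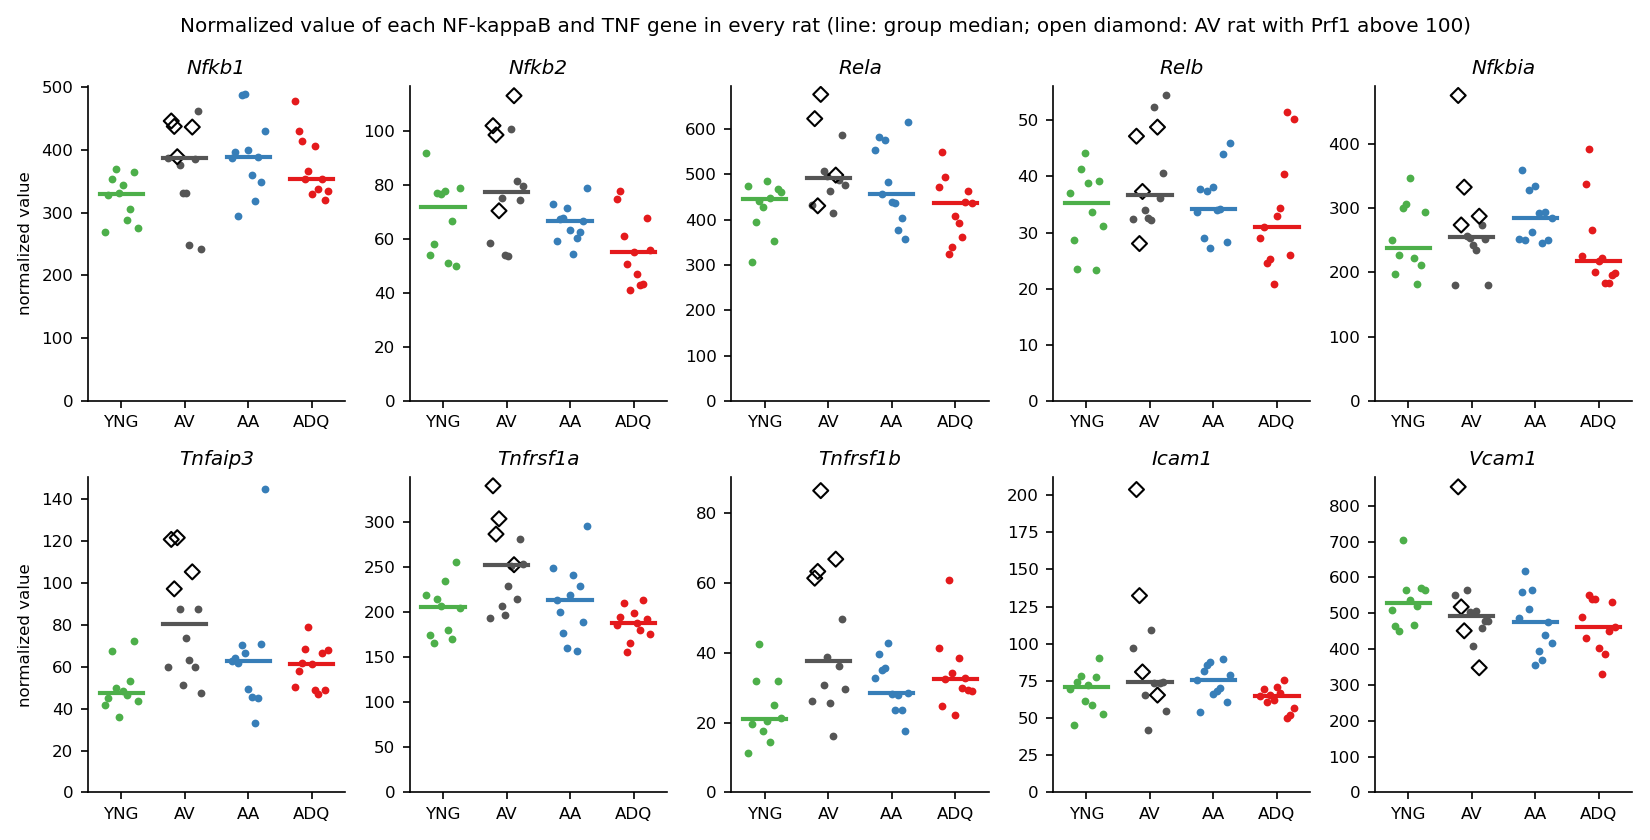
Normalized value (y axis, linear from 0) of each of the 10 genes in every rat, by group (x axis). Each point is a rat, the line is the group median, and open diamonds are the 4 AV rats with Prf1 above 100; these diamonds are above every YNG rat for Tnfaip3 and Tnfrsf1b, and every ADQ rat is below the AV median for Tnfrsf1a and Tnfaip3.

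AV rats had higher levels of 4 of the 10 genes than YNG rats and a lower level of none, at the unadjusted p of 0.05 that the study used. These were Tnfrsf1b, Tnfaip3, Tnfrsf1a and Rela. Across all genes tested, 10.6% were higher and 10.7% lower at the same threshold. The median log2 difference over the 10 genes was 0.23, and 9 of 10 were positive, beside a median of 0.00 over all genes. With the 4 rats high in Prf1 left out, the median of the 10 was 0.13, and 8 of 10 were positive. After Benjamini-Hochberg adjustment over all genes in limma, Tnfrsf1b and Tnfaip3 kept a p below the threshold, beside 1.81% of all genes higher and 0.539% lower. Without the 4 rats high in Prf1, these same 2 genes were called at the unadjusted threshold and Tnfrsf1a and Rela were not, none of the 10 passed after adjustment (smallest limma adjusted p = 0.513), and the share of all genes called in either direction went from 21.3% to 9.32%.

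ADQ rats had lower levels of 5 of the 10 genes than AV rats and a higher level of none, beside 5.9% of all genes lower and 3.42% higher. These were Tnfrsf1a, Nfkb2, Rela, Icam1 and Tnfaip3, and the median log2 difference over the 10 was -0.27, against 0.01 over all genes. With the 4 rats high in Prf1 left out, the median of the 10 was -0.15. AA rats had lower levels of Tnfrsf1a and Tnfaip3 than AV rats, 2 of 10, beside 3.1% of all genes lower and 1.4% higher (4.51% in all). No gene of the 10 passed after adjustment in either comparison, nor did any other gene tested: the smallest adjusted p over all genes was 0.134 for ADQ against AV, a value that Tnfrsf1a shared, and 0.526 for AA against AV. Without the 4 rats high in Prf1, Tnfrsf1a and Nfkb2 were the genes still lower in ADQ than in AV, 2 of 10, beside 4.84% of all genes called in either direction. In AA against AV the lower calls were then lost and Nfkbia alone was called, as higher, beside 2.42% of all genes. These comparisons and that of AV with YNG use the same 12 AV rats, so their results are not independent of each other.

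Tnfrsf1a (ENSRNOG00000031312) encodes TNFR1, the widely expressed receptor with a death domain through which soluble TNF signals. Its normalized value ran from 166 to 256 with a median of 206 in YNG, from 194 to 341 with a median of 252 in AV, from 157 to 296 with a median of 214 in AA, and from 156 to 214 with a median of 188 in ADQ. All 11 ADQ rats lay below the AV median and 7 of them below the lowest AV rat, while 9 of the 12 AV rats lay above the highest ADQ rat; the ranges overlapped. The level was 1.23-fold higher in AV than in YNG (log2 difference 0.30, 95% CI 0.10 to 0.50, limma adjusted p = 0.0922). In ADQ it was 0.756 times that of AV (log2 difference -0.40, 95% CI -0.60 to -0.21, unadjusted p = 0.000166, limma adjusted p = 0.134), and without the 4 rats high in Prf1 the log2 difference was -0.28 (unadjusted p = 0.00971). The fall in ADQ was called under all 15 alternative settings and whichever rat was left out. In AA the log2 difference from AV was -0.25 (unadjusted p = 0.0157, limma adjusted p = 0.999), and -0.12 without those 4 rats (unadjusted p = 0.242).

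Tnfrsf1b (ENSRNOG00000016575) encodes TNFR2, which lacks a death domain and is found mainly on immune, endothelial and glial cells. Its normalized value ran from 11.2 to 42.4 with a median of 20.9 in YNG, from 16.05 to 86.4 with a median of 37.5 in AV, from 17.65 to 42.7 with a median of 28.5 in AA, and from 22.02 to 60.7 with a median of 32.4 in ADQ. The 4 AV rats high in Prf1 were the 4 highest AV rats, at 61.3 or more, and the other 8 AV rats had a median of 30.2. This was the largest rise among the 10 genes in AV against YNG, 1.77-fold (log2 difference 0.82, 95% CI 0.38 to 1.27, limma adjusted p = 0.0324), and it was 0.44 on the log2 scale without those 4 rats (unadjusted p = 0.0453, limma adjusted p = 0.533). ADQ rats remained above YNG by 0.56 on the log2 scale (unadjusted p = 0.0168, limma adjusted p = 0.1). The differences from AV were -0.41 in AA (95% CI -0.85 to 0.02) and -0.27 in ADQ (95% CI -0.70 to 0.17), and neither was called. Without the 4 rats high in Prf1 they were -0.03 in AA and 0.12 in ADQ, the latter of opposite sign, and again neither was called. With a median of 31 estimated reads per rat, Tnfrsf1b was the gene of the 10 with the fewest reads.

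Among the NF-κB subunits, Rela (ENSRNOG00000030888), which carries the main transactivation domain of the canonical dimer, ran from 305 to 486 with a median of 445 in YNG, from 414 to 676 with a median of 491 in AV, from 357 to 615 with a median of 456 in AA, and from 325 to 549 with a median of 437 in ADQ. AV rats were shifted up, with 7 of 12 above the highest YNG rat, and 5 of 11 ADQ rats lay below the lowest AV rat. The log2 difference was 0.25 in AV against YNG (limma adjusted p = 0.148) and -0.25 in ADQ against AV (limma adjusted p = 0.419). Without the 4 rats high in Prf1 these became 0.19 (unadjusted p = 0.0883) and -0.19 (unadjusted p = 0.0779).

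Nfkb2 (ENSRNOG00000019311) ran from 49.8 to 91.95 with a median of 71.6 in YNG, from 53.5 to 113 with a median of 77.2 in AV, from 54.4 to 78.8 with a median of 66.5 in AA, and from 41.02 to 77.5 with a median of 55.1 in ADQ. It was the subunit with the lowest level in ADQ relative to AV: 10 of 11 ADQ rats were below the AV median, and 5 below every AV rat. The value in ADQ was 0.708 times that of AV (log2 difference -0.50, 95% CI -0.76 to -0.24, unadjusted p = 0.000326, limma adjusted p = 0.164), and the log2 difference was -0.36 without the 4 rats high in Prf1 (unadjusted p = 0.0112). ADQ was also below YNG, by -0.28 on the log2 scale (unadjusted p = 0.0408, limma adjusted p = 0.159), a call that was lost under 6 of 15 alternative settings.

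Nfkb1 (ENSRNOG00000023258) had its lowest median in YNG, where it ran from 269 to 370.4 with a median of 329.7, against 243 to 462 with a median of 387 in AV, 295 to 489.6 with a median of 389 in AA, and 321 to 479 with a median of 354 in ADQ. Most older rats were high: 8 of 12 AV rats were above the highest YNG rat, yet the 2 lowest rats of all, 4572 and 4567, were AV rats too. Nfkb1 was higher than in YNG in AA (log2 difference 0.27, limma adjusted p = 0.0941), in ADQ (0.21, limma adjusted p = 0.165) and over the 3 older groups together (0.22, limma adjusted p = 0.0632), but not in AV alone (0.19, 95% CI -0.02 to 0.39). The differences of AA, ADQ and the older groups from YNG were 0.36, 0.36 and 0.34 in the rats numbered V1 to V6 and 3890 to 4011, and 0.18, 0.07 and 0.10 in the others, where none was called. The call in ADQ was also lost when any 1 of 8 rats was left out. It was not called in ADQ against AV (0.03, 95% CI -0.17 to 0.22), and whether it differs in this from Rela and Nfkb2 was not tested.

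Relb (ENSRNOG00000033235) was not called in any of the 7 comparisons with all rats. It ran from 23.4 to 44.2 with a median of 35.3 in YNG, from 28.04 to 54.4 with a median of 36.8 in AV, from 27.3 to 45.98 with a median of 34.2 in AA, and from 20.9 to 51.5 with a median of 31.01 in ADQ. The largest of its differences was -0.27 on the log2 scale in ADQ against AV (95% CI -0.56 to 0.02), so that a fall of about the size seen in Rela lies within the interval.

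Of the inhibitors, Tnfaip3 (ENSRNOG00000049517) encodes A20, a ubiquitin-editing enzyme that shuts off NF-κB signalling and is itself induced by it. Its normalized value ran from 35.8 to 72.1 with a median of 47.6 in YNG, from 47.6 to 122 with a median of 80.4 in AV, from 33.2 to 145 with a median of 62.7 in AA, and from 46.8 to 78.9 with a median of 61.1 in ADQ. All 12 AV rats lay above the YNG median, the 4 rats high in Prf1 were the highest AV rats at 97.2 or more, and the single AA rat above them, 4107, is the one with the low granule cell sum. AV exceeded YNG 1.56-fold (log2 difference 0.64, 95% CI 0.29 to 0.99, limma adjusted p = 0.0347), and by 0.38 on the log2 scale without those 4 rats (unadjusted p = 0.0355, limma adjusted p = 0.513). Both treated groups were lower than AV, AA by -0.35 (unadjusted p = 0.0426, limma adjusted p = 0.999) and ADQ by -0.39 (unadjusted p = 0.0261, limma adjusted p = 0.468). Neither was called without the 4 rats, where the log2 differences were -0.10 and -0.13. The AA call was lost under 6 of 15 alternative settings and when any 1 of 10 rats was left out, among them each of those 4, while leaving out rat 4107 moved the difference to -0.48 (unadjusted p = 0.00332).

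Nfkbia (ENSRNOG00000007390) encodes IκBα, the inhibitor resynthesized after each round of activation. It ran from 183 to 347 with a median of 238 in YNG, from 180.3 to 475 with a median of 255 in AV, from 246 to 359 with a median of 285 in AA, and from 184 to 392 with a median of 218 in ADQ. Rat 3989 held the highest value, well above the next AV rat at 333, and all 11 AA rats lay above the ADQ median, although all ranges overlapped. The single call was AA over ADQ, 1.23-fold (log2 difference 0.30, unadjusted p = 0.0304, limma adjusted p = 0.981), the 1 gene of the 10 called in that comparison, beside 2.13% of all genes higher and 2.4% lower (4.53% in all). Leaving out any 1 of 6 rats ended this call: AA rats 3984 and 4035, and ADQ rats 4074, 4105, 4106 and 4110.

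Icam1 (ENSRNOG00000020679), the ligand of leukocyte integrins, and Vcam1 (ENSRNOG00000014333), an adhesion molecule that astrocytes and neural stem cells also make, are its textbook endothelial targets, and neither was called in AV against YNG. Icam1 ran from 45.1 to 90.7 with a median of 70.9 in YNG, from 41.8 to 204 with a median of 74.1 in AV, from 54.3 to 90.01 with a median of 75.7 in AA, and from 50.3 to 75.9 with a median of 65.1 in ADQ. The AV medians and those of the other groups were close, and the upper end of AV was made by rats 3989 and 3999, at 204 and 132. Icam1 was lower in ADQ than in AV (log2 difference -0.38, unadjusted p = 0.0182, limma adjusted p = 0.439), which leaving out rat 3989 alone ended (-0.26, unadjusted p = 0.0576). Vcam1 ran from 452 to 705 with a median of 529 in YNG, from 348 to 853 with a median of 491 in AV, from 356 to 617 with a median of 475 in AA, and from 331 to 550.4 with a median of 461 in ADQ. Rat 3989 was again the highest, and without it the next AV rat stood at 566. No comparison called Vcam1 in limma with all rats. Its log2 difference from YNG was -0.09 in AV, -0.19 in AA and -0.21 in ADQ (95% CI of the last -0.43 to 0.01). The permutation test with all rats gave p = 0.0381 for ADQ against YNG, below the threshold, and no other comparison of Vcam1 was below it in that test. Without the rats high in Prf1, limma called Vcam1 lower than in YNG in ADQ (-0.21) and over the older groups together (-0.17).

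**Figure D2:**
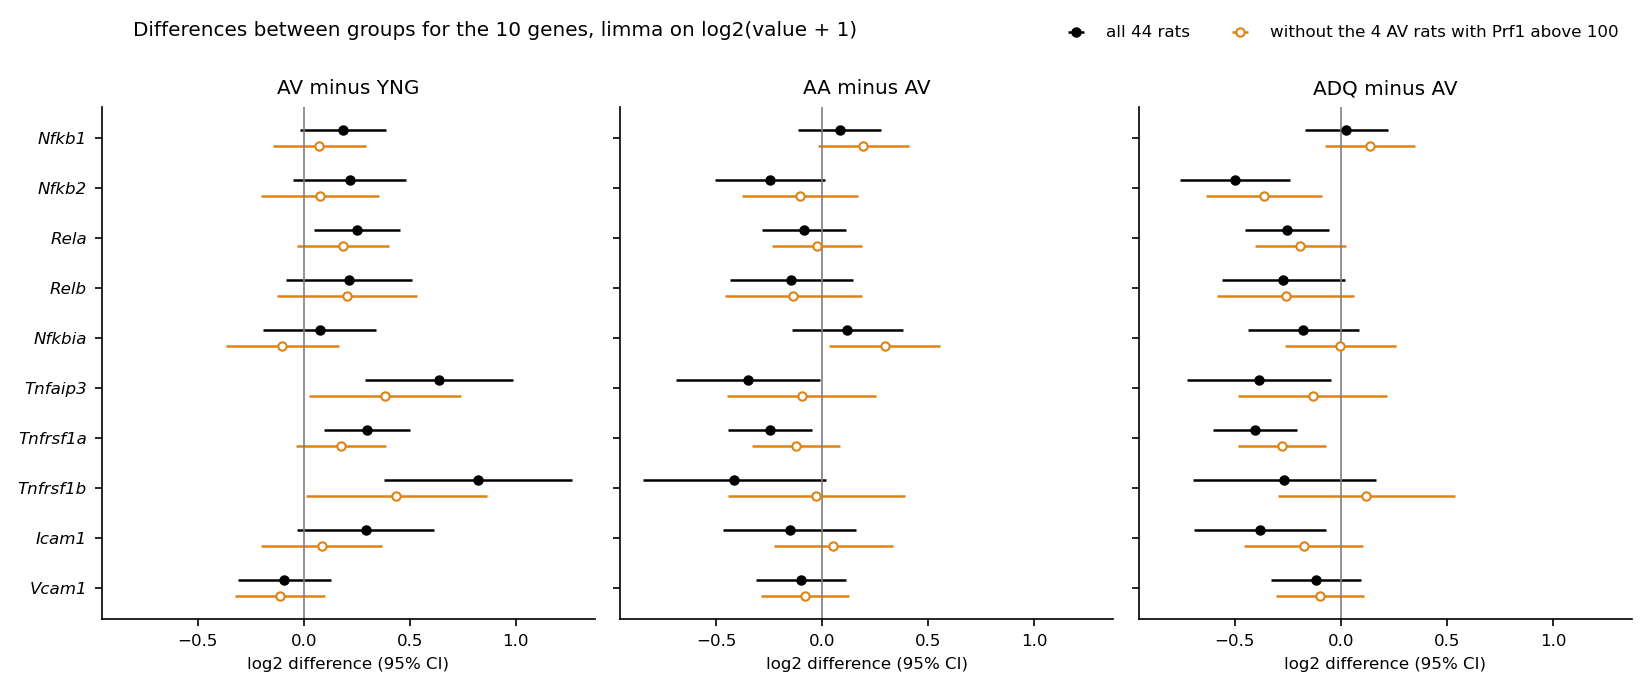
Log2 difference of each gene (y axis, ordered by role) in 3 comparisons, with 95% confidence intervals from limma (x axis). Filled circles use all 44 rats and open circles leave out the 4 AV rats with Prf1 above 100; with them left out, the intervals of Tnfrsf1b and Tnfaip3 stay above 0 in AV minus YNG, and those of Tnfrsf1a and Nfkb2 stay below 0 in ADQ minus AV.

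Against YNG, AA was higher for Nfkb1 alone, 1 of 10, beside 12.6% of all genes higher and 14.1% lower (26.6% in all), and none of the 10 passed after adjustment, beside 3.85% of all genes (1.55% higher and 2.31% lower). ADQ was higher for Tnfrsf1b and Nfkb1 and lower for Nfkb2, beside 13.5% higher and 14.6% lower (28.1% in all). None of the 3 passed after adjustment, beside 7.08% of all genes (3.12% higher and 3.96% lower). With the 3 older groups combined, Tnfrsf1b, Tnfaip3 and Nfkb1 were higher than in YNG and none was lower, beside 15.7% and 16.7% of all genes (32.4% in all). Of these, Tnfrsf1b passed after adjustment (1.51-fold, log2 difference 0.60, limma adjusted p = 0.029), beside 14.9% of all genes (6.65% higher and 8.23% lower), and Tnfaip3 came to 0.39 on the log2 scale (limma adjusted p = 0.0575). The Tnfrsf1b difference was 0.47 without the 4 rats high in Prf1 (limma adjusted p = 0.0569). The comparisons share the 10 YNG rats, and the direct tests between the older groups are those given above.

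**Figure D3:**
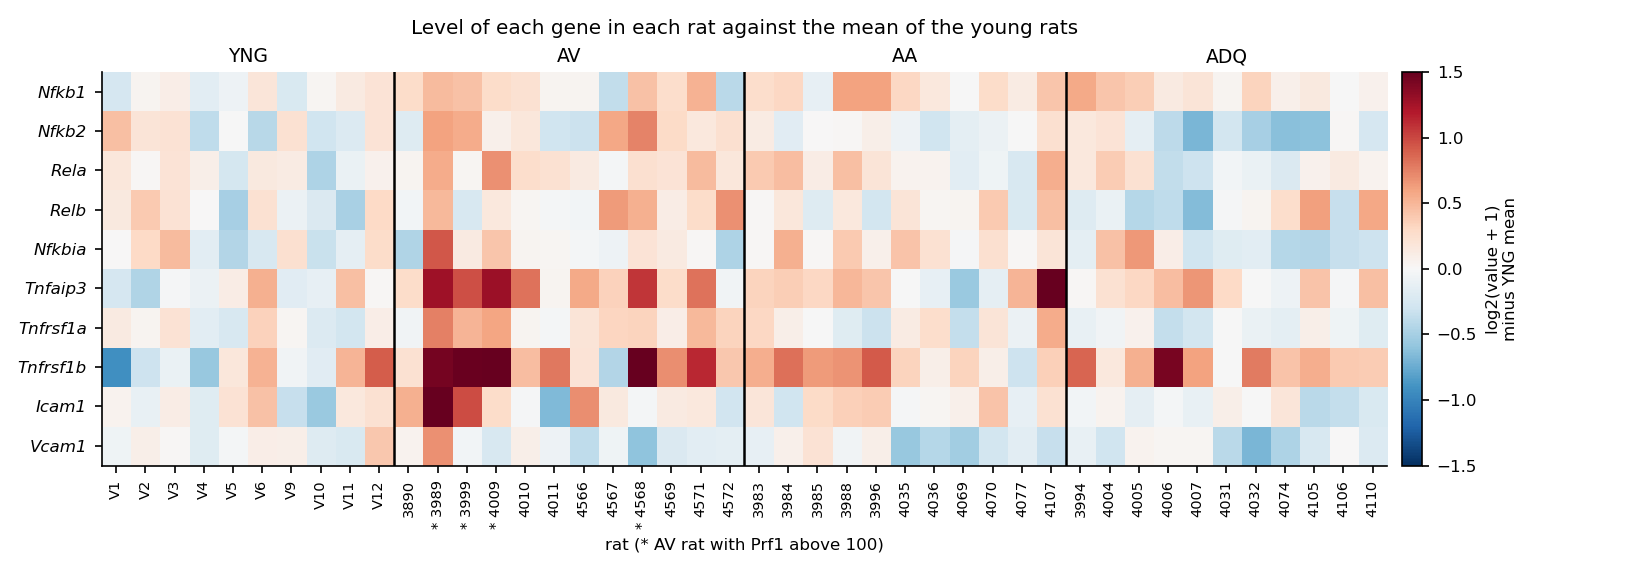
Level of each gene (rows, ordered by role) in each of the 44 rats (columns, by group), as log2(value + 1) minus the mean of the YNG rats; red is higher and blue lower, and stars mark the 4 AV rats with Prf1 above 100. Tnfaip3 and Tnfrsf1b are red in all 4 starred rats, Icam1 is red in rat 3989 and Tnfaip3 in AA rat 4107, and the Nfkb2 row is mostly blue in ADQ.

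The rat by rat pattern shows how the AV group was made up. Tnfaip3 and Tnfrsf1b had all 4 rats high in Prf1 among the 5 highest of the 44, and Nfkb2 and Tnfrsf1a had 3 of them there. For Nfkb2 these 4 rats had a median of 100.2 and the other 8 AV rats one of 74.8, close to the YNG median of 71.6. For Tnfaip3 the corresponding medians were 113, 61.6 and 47.6, and for Tnfrsf1a 295, 222 and 206. Rela and Icam1 had 2 of the 4 rats among the 5 highest, and Nfkb1, Nfkbia, Relb and Vcam1 had 1. The part of lymphocytes in these values was not tested.

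The other genes of the pathway were described from lists by role that hold 86 genes, of which 81 were in the table and 73 were tested, the 10 genes included. Tnf itself, with a mean of 2.11 normalized counts, was below the minimum, as were Il1b (2.25), Il6 (0.543), Ccl2 (0.832), Cxcl1 (1.76), Lta (0.645), Nos2 (3.72) and Lcn2 (1.98), so the main cytokines of the pathway were not tested here. Bcl3, Ccl5 and Cxcl10 passed the minimum through the AV rats, since their mean over all other rats was 4.95, 1.81 and 4.47, and they are left out of the counts that follow, a choice made after the values were seen. Of the other 70, AV exceeded YNG for 18 and fell short of it for 5, beside 10.6% and 10.7% of all genes. In AA against AV 0 were higher and 4 lower, beside 1.4% and 3.1%, and in ADQ against AV 2 were higher and 14 lower, beside 3.42% and 5.9%. Without the 4 rats high in Prf1 the counts were 9 higher and 1 lower, 2 higher and 0 lower, and 2 higher and 7 lower, beside 9.32%, 2.42% and 4.84% of all genes called in either direction. The lower calls of AA against AV were thus lost there. With the 3 genes included, the counts with all rats were 20 higher and 5 lower, 0 and 5, and 2 and 15, and the median log2 difference of the 73 was 0.15, -0.06 and -0.13 in the 3 comparisons. Without the 4 rats high in Prf1 these medians were 0.08, -0.01 and -0.05.

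On the receptor list, 7 of 10 tested genes were higher in AV than in YNG and none lower, beside 10.6% and 10.7% of all genes. In ADQ against AV 5 of 10 were lower and none higher, beside 5.9% and 3.42%, with all 10 differences negative. Tnfrsf12a, the receptor of the cytokine TWEAK, had a median of 20.2 for YNG, 31.9 for AV, 28.4 for AA and 19.4 for ADQ (log2 difference ADQ against AV -0.62, limma adjusted p = 0.185). Ltbr, the lymphotoxin β receptor that feeds the noncanonical branch through Nfkb2, had a median of 265 for YNG, 264.5 for AV, 262 for AA and 213 for ADQ (log2 difference ADQ against AV -0.38, limma adjusted p = 0.195). Both stayed lower in ADQ without the 4 rats high in Prf1, at -0.52 (unadjusted p = 0.00905) and -0.32 (unadjusted p = 0.00865). Tlr2, a receptor of bacterial lipoproteins, was lower in AA than in AV (log2 difference -0.31, limma adjusted p = 0.999), a call lost without those 4 rats (-0.25, unadjusted p = 0.114). Leaving out those 4 rats gave 3 of 10 receptors higher in AV than in YNG, beside 9.32% of all genes called, with 8 of 10 differences positive. It gave 4 of 10 lower in ADQ than in AV, beside 4.84%, with 3 of 10 differences positive.

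Bcl3, an atypical IκB protein that binds p50 and p52 in the nucleus, is given as a description because of its low values. Its median was 1.17 normalized counts for YNG, 10.9 for AV, 5.68 for AA and 5.17 for ADQ. The log2 difference was 2.18 in AV against YNG, 1.59 there without the 4 rats high in Prf1, and 1.62 over the 3 older groups against YNG. Ccl5, a chemokine that cytotoxic lymphocytes make themselves, passed the minimum only through the 4 rats high in Prf1, so its differences are likewise a description: 2.91 in AV against YNG, -2.33 in AA against AV and -3.14 in ADQ against AV on the log2 scale. Its high values were those of the 4 rats, 112 to 529 normalized counts. No other rat was above 11.9, and the other 8 AV rats had a median of 2.25, a level at which other genes were not tested. Irf1, an interferon-responsive transcription factor, was higher in AV than in YNG (0.43, limma adjusted p = 0.0283) and lower in AA and in ADQ than in AV. With the 4 rats left out its difference of AV from YNG was 0.18 (unadjusted p = 0.038, limma adjusted p = 0.525), and those of AA and ADQ from AV were -0.09 each and were not called.

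Among the other roles, 3 of 12 kinases were higher in AV than in YNG and none lower, and 0 of 12 were called in AA or ADQ against AV. For this and the following lists the shares of all genes are 10.6% higher and 10.7% lower in AV against YNG, and 3.42% higher and 5.9% lower in ADQ against AV. A single call in a list of 10 to 12 genes is thus near what all genes gave. In the lists of 3 to 5 genes a single call is a larger share, but one of few genes. Map3k8, a kinase activated downstream of TNF and Toll-like receptors, was higher in AA (log2 difference 1.02, limma adjusted p = 0.0471) and over the older groups (0.99, limma adjusted p = 0.0102) than in YNG. Map3k7, which encodes TAK1, was higher in ADQ than in YNG (0.94, limma adjusted p = 0.0276), and Tab2, its adaptor, was lower in AA than in YNG (-0.15, limma adjusted p = 0.0642). The other older groups were also above YNG for both kinases. Without the 4 rats high in Prf1, Map3k8 differed from YNG by 0.79 in AV and 0.83 in ADQ, and Map3k7 by 0.63 in AV and 0.70 in AA. Otulin, which removes linear ubiquitin chains, was lower than in YNG in AA (-0.34, limma adjusted p = 0.0457), in ADQ (-0.36, limma adjusted p = 0.0266) and over the older groups (-0.30, limma adjusted p = 0.0147). Cyld, a deubiquitinase that restrains the pathway, was higher in ADQ than in YNG (0.30, limma adjusted p = 0.0238), and lower in AA than in ADQ (-0.25, limma adjusted p = 0.981). Junb, an immediate early gene and NF-κB target, was higher in AA than in ADQ (0.53, limma adjusted p = 0.981). With Bcl3, Ccl5 and Cxcl10 left out, 2 of 5 Rel subunits, 0 of 5 genes of the IκB family, 1 of 4 ligands, 1 of 11 adaptors, 1 of 10 ubiquitin-editing genes, 1 of 3 adhesion genes and 3 of 10 other targets were lower in ADQ than in AV. In AV against YNG, 1 of 5, 1 of 5, 1 of 4, 0 of 11, 1 of 10, 0 of 3 and 4 of 10 of the same lists were higher, and 1 of 11 adaptors and 4 of 10 ubiquitin-editing genes were lower.

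**Figure D4:**
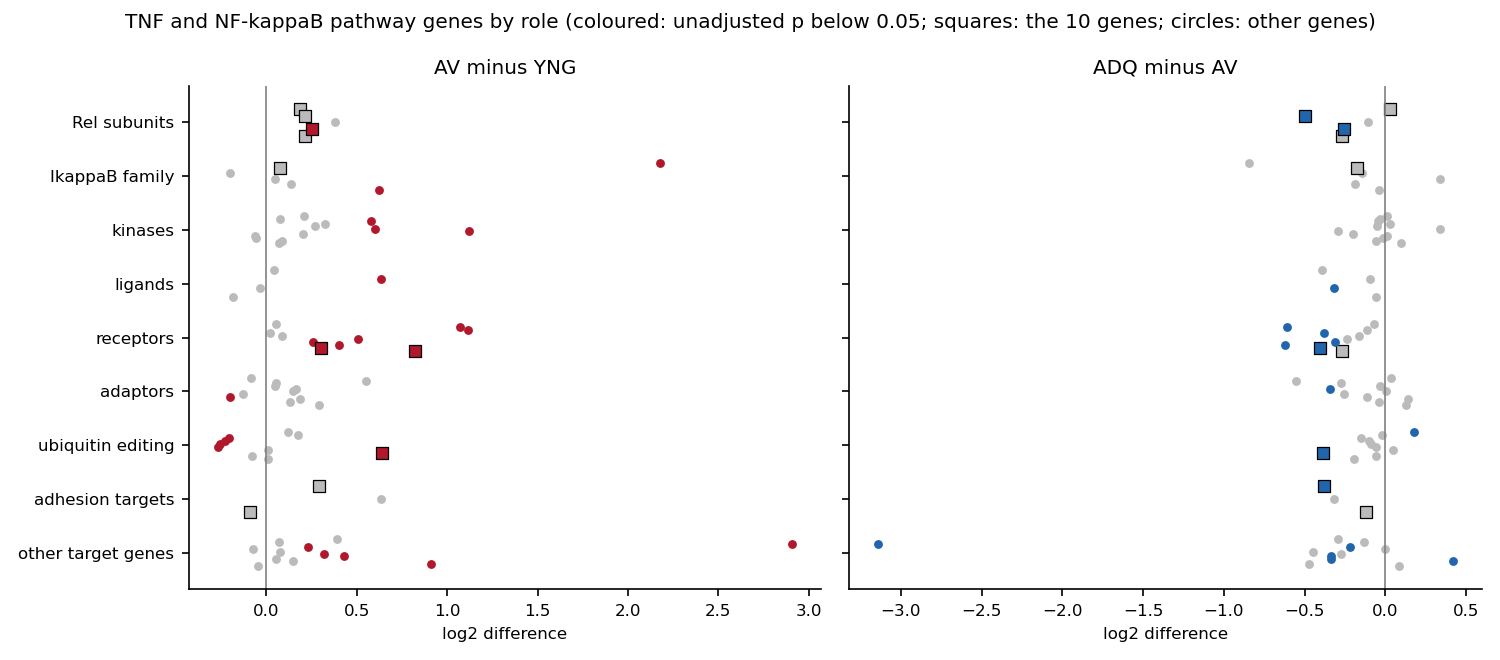
Log2 difference (x axis) of the tested TNF and NF-κB pathway genes, grouped by role (y axis), in AV minus YNG (left) and ADQ minus AV (right). Each symbol is a gene, squares are the 10 genes described here, colour marks an unadjusted p below 0.05 and grey the rest; in the receptor row all 10 genes lie to the right of 0 on the left and to the left of 0 on the right, and the far point on each side is Ccl5, which, like Bcl3 and Cxcl10, passed the minimum through the AV rats.

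Markers of other cell types moved with these results, and their counts are to be read beside 10.6% of all genes higher in AV than in YNG, 5.9% lower in ADQ than in AV and 3.1% lower in AA than in AV. All 6 tested endothelial markers were higher in AV than in YNG (median log2 difference 0.76) and all 6 lower in ADQ than in AV (-0.53). In AA against AV 2 of 6 were lower and all 6 differences were negative (median -0.32). Their summed level had a median of 2174 normalized counts for YNG, 3335 for AV, 2701 for AA and 2556 for ADQ, with Cldn5, a tight junction gene, the most abundant. Of the 10 microglial markers, 4 were higher in AV than in YNG, and 7 were lower in ADQ and 3 in AA than in AV. Their sum had a median of 7405 for YNG, 7504 for AV, 6714 for AA and 6410 for ADQ, with Csf1r, the receptor of colony-stimulating factor 1, the most abundant. The sum of the T and NK cell markers Prf1, Nkg7, Cd8a and Cd3e had a median of 48.1 for YNG, 122 for AV, 43.6 for AA and 36.9 for ADQ. Prf1, Nkg7 and Cd8a passed the minimum only through the 4 rats high in Prf1, and Gzmb did not pass, so no count of calls is given for this list. By mean, Prf1 was the most abundant of them in AV (98.9 against 66.1 for Cd3e), and Cd3e in YNG (51.0), AA (59.9) and ADQ (40.95).

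Oligodendrocyte markers were higher in AV than in YNG for 5 of 6 and lower in ADQ than in AV for 4 of 6, with a median sum of 69400 for YNG, 80170 for AV, 70792 for AA and 64366 for ADQ, mostly Mbp. Of the astrocyte markers 3 of 6 were higher in AV than in YNG, and 1 of 6 was lower in AA and 1 of 6 in ADQ than in AV; their sum, led by Gfap, had a median of 55468 for YNG, 69117 for AV, 63012 for AA and 61561 for ADQ. Red blood cell markers were lower in ADQ than in AV for 4 of 4 and in AA than in AV for 1 of 4, with a median sum of 12461 for YNG, 10813 for AV, 6150 for AA and 6416 for ADQ, led by Hbb. Choroid plexus markers, led by Ttr, were lower in ADQ than in AV for 2 of 4, with medians of their sum of 93.9, 84.6, 89.3 and 63.6 in YNG, AV, AA and ADQ. Pericyte markers, led by Pdgfrb, were higher in AV than in YNG for 1 of 6, and 1 of 6 was lower in ADQ and 1 of 6 in AA than in AV, with medians of 867, 1132, 997 and 955. Of the 5 granule cell markers, led by C1ql2, 1 was lower in AV than in YNG, the calcium-binding protein gene Calb1 (log2 difference -0.62, limma adjusted p = 0.0133), beside 10.7% of all genes lower, and none was called in AA or ADQ against AV. Over the older groups Calb1 (-0.53, limma adjusted p = 0.00729) and C1ql2 (-0.42, limma adjusted p = 0.0708) were lower than in YNG. Markers of CA1 pyramidal cells, of CA3 pyramidal and mossy cells and of meninges, led by Wfs1, Neurod6 and Igf2, had no call in AV against YNG or ADQ against AV. All 5 CA1 differences in ADQ against AV were negative (median log2 difference -0.41), and also without the 4 rats high in Prf1 (-0.34). In AA against AV 1 of 4 CA3 and mossy cell markers was higher, beside 1.4% of all genes, and 0 of 4 without those rats.

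Without the 4 rats high in Prf1, 3 of 6 endothelial and 2 of 10 microglial markers were higher in AV than in YNG, and 0 of 6 endothelial and 3 of 10 microglial markers were lower in ADQ than in AV. Oligodendrocyte markers were higher in AV than in YNG for 5 of 6 there (median log2 difference 0.41). The counts of this paragraph are to be read beside the shares of all genes given above for the pathway lists without these rats. All 6 endothelial and all 10 microglial differences in ADQ against AV were still negative there, with medians of -0.17 and -0.20, and 2 of 6 oligodendrocyte and 1 of 6 astrocyte markers were still called lower. Red blood cell (0 of 4), choroid plexus (0 of 4) and pericyte (0 of 6) markers had no call in ADQ against AV there, and the red blood cell median was -0.61. In AA against AV none of these endothelial, pericyte or red blood cell markers was called there, and the endothelial median was 0.02. In that comparison 1 of 10 microglial and 1 of 6 astrocyte markers were still lower, and none of either list was higher. Among all cell type lists, none had every defining marker at 0. The part of cell makeup in the differences of the 10 genes was not tested.

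The rats were split by number into 2 series, V1 to V6 with 3890 to 4011 (series a, 22 rats) and V9 to V12 with 4031 to 4572 (series b, 22 rats). The labels name no batch, so this split was made from the numbers alone. Series b itself holds 2 separate runs of older rats, 4031 to 4110 and 4566 to 4572. The fall of Tnfrsf1a in ADQ against AV was called in each, with log2 differences of -0.45 in series a (unadjusted p = 0.0107) and -0.36 in series b (unadjusted p = 0.00683) in limma. Nfkb2 differed by -0.32 in series a (unadjusted p = 0.134) and by -0.66 in series b (unadjusted p = 0.000775). For AV against YNG, Tnfaip3 differed by 0.80 in series a (unadjusted p = 0.000684) and 0.46 in series b (unadjusted p = 0.127), and Rela by 0.24 (unadjusted p = 0.0994) and 0.29 (unadjusted p = 0.0436). Tnfrsf1b differed by 1.25 in series a and 0.29 in series b, and the 3 rats high in Prf1 of series a with the 1 of series b enter these values. For the other comparisons with YNG, Tnfrsf1b differed by 0.92 in AA, 0.92 in ADQ and 1.03 in the older groups combined in series a, and by -0.15, 0.12 and 0.09 in series b, where none was called. Of 30 tests of a difference between the series, that of Tnfrsf1b in AV against YNG was the 1 with an unadjusted p below the threshold (0.0258, limma adjusted p = 0.164), beside 21.8% of all genes in AV against YNG. In series b every AV rat is numbered 4566 to 4572 and every treated rat 4031 to 4110, so there treatment and run of numbers cannot be told apart.

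Relations among the 10 genes within groups were described over the 44 rats. Of 45 pairs, 39 (86.7%) had a positive Spearman's rho of the deviations from group means, beside 49.8% of all pairs of the 15598 genes, and the median rho was 0.23, beside 0.00 over all pairs. After adjustment over the 45 pairs 11 (24.4%) passed the permutation test, all positive with a rho of at least 0.384, a value that 9.69% of all pairs reached. The highest was Nfkb1 with Tnfrsf1b (rho = 0.59, permutation p = 6e-05, adjusted p = 0.0027; Pearson's r = 0.59, permutation p = 0.00012). Next came Tnfaip3 with Tnfrsf1b (rho = 0.55, permutation p = 0.00041, adjusted p = 0.00615; r = 0.475, permutation p = 0.00155). Rela with Tnfrsf1a was the third (rho = 0.54, permutation p = 0.00035, adjusted p = 0.00615; r = 0.56, permutation p = 0.00019). The lowest was Relb with Vcam1 (rho = -0.23, permutation p = 0.142, adjusted p = 0.291; r = -0.14, permutation p = 0.367). Without the 2 rats farthest from the median of the first gene of the pair, r was 0.51, 0.59, 0.52 and -0.155 in these 4 pairs.

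**Figure D5:**
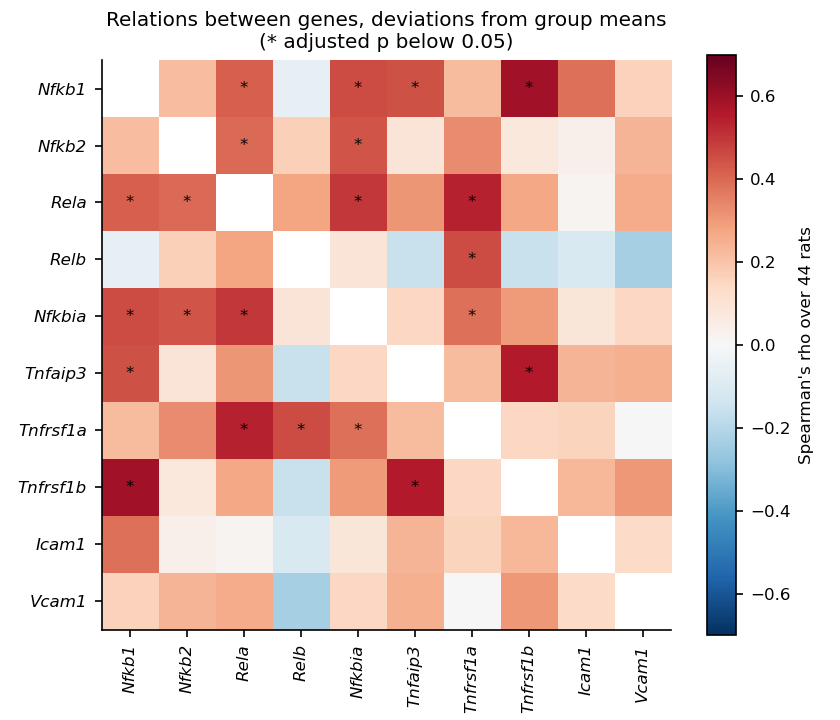
Spearman's rho between each pair of the 10 genes over 44 rats, computed from the deviations of log2(value + 1) from group means; red is positive, blue negative, and a star marks an adjusted permutation p below 0.05. Of the 45 pairs 39 are positive and the 11 starred pairs are all positive.

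Within the series of rat numbers fewer pairs passed, 1 in series a and 0 in series b, each with 22 rats, although r was positive in both series for all 11 pairs. Nfkb1 with Tnfrsf1b had r = 0.299 in series a and 0.764 in series b, Tnfaip3 with Tnfrsf1b had 0.664 and 0.268, and Rela with Tnfrsf1a had 0.615 and 0.705. Relb with Vcam1, negative over all rats, had r = 0.205 and 0.215 and rho = 0.027 and 0.266. Without the 4 rats high in Prf1, 5 pairs passed, and r was 0.523, 0.268 and 0.524 for the 3 pairs. All values of a rat come from 1 library and share its depth and cell makeup.

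Over the 44 rats, the genes with the most similar deviations were described by Pearson's r among the 13704 genes with a mean of at least 20. For Tnfrsf1a they were C1qb (0.784), C1qc (0.761) and Unc93b1 (0.761), the first 2 being complement genes of microglia. Tnfrsf1b was closest to Iqgap1 (0.77), Abcc9 (0.743) and Zfp366 (0.741). Among the subunits, Rela was closest to Rgma (0.832), Zfp385a (0.818) and Kctd15 (0.812), Nfkb1 to Grip2 (0.796), Trim65 (0.776) and Itga6 (0.768), Nfkb2 to Adora2a (0.673), Tgfb1 (0.66) and Nod1 (0.645), and Relb to Fen1 (0.715), Yif1a (0.691) and Rpl27 (0.678). Nfkbia was closest to Apold1 (0.714), Gja4 (0.708) and the immediate early gene Dusp1 (0.688), and Tnfaip3 to Pdgfra (0.731), Atp7b (0.724) and Plekha7 (0.718). Vcam1 was closest to Elovl2 (0.833), Laptm4a (0.831) and Nadk2 (0.823). Icam1 was closest to B2m (0.672), Ifitm3 (0.646) and Mylk (0.645), values that were 0.34, 0.47 and 0.408 without the 4 rats high in Prf1.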

How the data were processed

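Libraries from 44 rats were prepared by poly(A) selection and sequenced on the Ion platform by the authors. The submitters' processing notes name STAR 2.5.3a, Partek, DESeq2 and the rn6 build; the annotation is not given in the sources used here. The table deposited by the authors holds signal values, estimated reads per transcript after median-ratio scaling of each library, in 24694 entries for 18347 gene identifiers, which were summed per identifier (1 entry for 8 of the 10 genes, several for Relb and Vcam1). The estimated reads quoted are each value divided by the most frequent low value of its library, taken as 1 read. Only 79.45 to 84.46% of low values came out whole within 0.05 reads, so no count model was used. The labels give only the age of a rat, and the treatment was read from the authors' attributes table by the rat's name. The labels state 12 months for the older rats, the age at which treatment began.

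Log2(value + 1) of the 15598 genes with a mean of at least 5 was fitted with limma 3.58.1 (R 4.3.3) over the 4 groups, which share 1 estimate of spread, with 7 contrasts. Genes were called at an unadjusted p below 0.05, and Benjamini-Hochberg adjusted values over all genes are given. Fold changes are on the log2(value + 1) scale and understate those of low genes. Relations among genes were tested over all rats with 100000 two-sided permutations, and in subsets of the rats with fewer (Python 3.11.15, scipy 1.17.1). The scripts were tested on simulated data. The 10 genes and all lists were chosen with earlier results of these data known. Beside the 10 genes, the text names in each contrast the 3 other pathway genes with the smallest p, the 3 genes most like each of the 10, and marker genes; others are said to be chosen after their values were seen. Alternatives were other pseudocounts, filters, scalings, weights, series of rat numbers and single rats left out. Promoter sequences are from RefSeq, build GRCr8, and differ in build from the deposited values.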

Additional observations from a re-analysis of the deposited data

Results flagged for a closer look

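Vcam1 in YNG had 1 rat far from the others of its group: V12 stood at 704.96 normalized counts, and the next YNG rat at 570.28. The YNG group was tested in this way for each of the 10 genes, and chance gives such a rat in about 5 percent of groups. The AV minus YNG difference of Tnfrsf1b differed between the 2 series of rat numbers by -0.962 on the log2 scale (series b minus series a, 95% CI -1.80 to -0.12, unadjusted limma p = 0.0258, limma adjusted p = 0.164), the 1 of 30 such tests with an unadjusted p below 0.05, beside 21.8% of all genes with such a p for the same difference. Rats high in Prf1 number 3 of the 6 AV rats in series a and 1 of the 6 in series b, and their part in the difference was not tested.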

How the results depend on the processing

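No called difference of the 10 genes took the opposite sign under an alternative. Differences that were not called did in places, such as Tnfrsf1b in AA against YNG (-0.15 in series b), and so did the rho of Relb with Vcam1 (0.027 and 0.266 within the series). The fall of Tnfrsf1a in ADQ against AV was called under all 15 alternatives. The counts below are of genes called in either direction, and they need not be of the same genes. Settings under which a count changed little are not listed. The cause of each change was not tested. For AV against YNG, 4 of the 10 genes became 8 with scaling to the total and 2 without the rats high in Prf1 (added after seeing the data). Within series a the genes called there were Tnfrsf1b, Tnfaip3 and Nfkb1, and within series b Rela, Tnfrsf1a and Relb. No gene was thus called in both series. For AA against YNG, 1 became 6 (total), 3 (array weights), 2 (within series a) and 2 (without those rats). For ADQ against YNG, 3 became 6 (array weights), and none of the 3 was called within series b. For AA against AV, 2 became 1 (total), 0 (within series a), 0 (within series b), 1 (own groups alone) and 1 (without those rats, higher where the 2 were lower). For ADQ against AV, 5 became 2 (series a), 3 (series b) and 2 (without those rats). Series a called Tnfrsf1a and Relb, and series b called Tnfrsf1a, Nfkb2 and Nfkbia, of which Relb and Nfkbia were not among the 5. For AA against ADQ, 1 became 2 (total), 2 (array weights), 0 (series a), 3 (own groups), 2 (without those rats) and 3 (permutation test). For the older rats together against YNG, 3 became 5 (total) and 1 (series b, where none of the 3 was called). Of the 73 pathway genes, Bcl3, Ccl5 and Cxcl10 included, the counts went from 25 to 7 (series b) and 12 (without those rats) in AV against YNG, from 17 to 31 (total), 33 (array weights) and 5 (series b) in AA against YNG, from 20 to 38 (array weights) and 3 (series b) in ADQ against YNG, from 5 to 3 (total), 3 (own groups) and 3 (without those rats, all higher where the 5 were lower) in AA against AV, from 17 to 8 (series a) and 10 (without those rats) in ADQ against AV, from 8 to 4 (series a) in AA against ADQ, and from 28 to 3 (series b) in older against YNG. The share of all genes called in the 7 comparisons, in this order, was 21.3%, 26.6%, 28.1%, 4.51%, 9.32%, 4.53% and 32.4% with the settings of the report, 22.3%, 33.2%, 33.5%, 4.23%, 8.73%, 3.82% and 38.2% with scaling to the total, 49.3%, 45.3%, 51.9%, 5.9%, 12.4%, 10.2% and 55.5% with array weights, 33.4%, 28.6%, 27.4%, 3.85%, 5.67%, 5.98% and 38% in series a, 6.31%, 12.4%, 6.9%, 4.21%, 9.74%, 4.15% and 8.82% in series b, 16.7%, 25.9%, 32.1%, 3.08%, 9.44%, 5.62% and 32.2% with own groups alone, and 9.32%, 28.2%, 29.7%, 2.42%, 4.84%, 5.39% and 30.2% without those rats. The 11 related pairs became 1 (series a), 0 (series b), 5 (without those rats) and 7 (without the 2 farthest rats). Leaving out 1 rat at a time gave, for the 10 genes, 3 to 6, 1 to 2, 1 to 4, 1 to 4, 3 to 6, 0 to 3 and 3 to 4 in the 7 comparisons in the order above, and for the pathway 17 to 29, 12 to 21, 15 to 26, 3 to 11, 13 to 20, 6 to 11 and 21 to 30. Scaling to the total moved the median of all genes by 0.10, 0.15 and 0.15 in AV, AA and ADQ against YNG. Tnfrsf1b, Relb, Tnfaip3, Nfkb2 and Icam1 had a median of 31 to 72 estimated reads per rat, which limits their precision. No paired analysis was possible because the rat names do not pair rats across groups.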

Other observations

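Of the 10 tested ubiquitin-editing genes, 4 were lower and 2 higher in the older rats than in YNG, beside 16.7% and 15.7% of all genes. After adjustment the 4 lower ones passed, beside 8.23% of all genes lower. They are Otulin, which removes linear ubiquitin chains, and Rbck1, Rnf31 and Sharpin, the 3 subunits of the complex that builds these chains, the last 3 named after their values were seen. The 2 higher genes were Tnfaip3 and Cyld, which also removes such chains (log2 difference 0.15, limma adjusted p = 0.097). Rbck1 had a median of 1340 normalized counts for YNG, 1023 for AV, 1051 for AA and 1039 for ADQ. Rnf31 had 994.5, 733.6, 719.1 and 687.1, and Sharpin 762.6, 551.6, 566.2 and 563.8. Otulin had 231.8, 198.4, 174.0 and 176.7. With the 3 older groups combined against YNG, the log2 difference was -0.28 for Rbck1 (limma adjusted p = 0.0255), -0.30 for Rnf31 (limma adjusted p = 0.0219), -0.31 for Sharpin (limma adjusted p = 0.026) and -0.30 for Otulin (limma adjusted p = 0.0147). When the 4 rats high in Prf1 were left out, Otulin (limma adjusted p = 0.0274) and Rnf31 (0.0393) passed and Sharpin (0.0508) and Rbck1 (0.0528) did not. With scaling to the total the adjusted p of the 4 genes was between 0.0687 and 0.103, and within series b Otulin alone was called.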
